A study of Mus musculus with 2 samples.

Results

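Transcript levels of 10 genes of the interleukin-1 system (Il1a, Il1b, Il1rn, Il1r1, Il1r2, Il1rap, Il18, Il33, Nlrp3 and Casp1) were examined in cells of mouse calvarial bone defects. The genes were taken by symbol from the 32285 genes in the count matrices, and all 10 were among the 24329 genes with a UMI (unique molecular identifier, 1 captured transcript) in at least 3 kept cells. The interleukin-1 family comprises cytokines that alert tissue to damage. Interleukin-1 alpha (Il1a) and interleukin-1 beta (Il1b) signal through the receptor Il1r1 with its accessory chain Il1rap, while the receptor antagonist Il1rn occupies Il1r1 without signalling and the decoy receptor Il1r2 binds the ligand without passing a signal on. The precursors of interleukin-1 beta and interleukin-18 (Il18) are cut by caspase-1 (Casp1), which is activated in the inflammasome, a complex assembled by sensors such as Nlrp3, whereas interleukin-33 (Il33) is an alarmin stored in the nucleus of stromal cells. Transcript levels do not report that cutting or release.

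The study gave gambogic amide (GA), a small-molecule agonist of the nerve growth factor receptor TrkA, to mice with a frontal bone defect, and compared them with vehicle-treated mice. Single-cell RNA sequencing yielded 1 library for each group, and each library pooled cells from 5 mice. All mice were C57BL/6 in the labels (C57BL/6J in the study's methods), male, 2 months old, with a 1.8 mm defect, and cranial bone around the defect was taken at 7 days and digested with collagenase. By the labels GA was injected intraperitoneally at 1.2 mg/kg in 100 µL of 10% DMSO, daily from 24 h before injury, and control mice received the vehicle on the same schedule. The labels give 1 week of treatment, which fits the sampling at 7 days, whereas the study's methods give a longer one. The study's methods also give a higher dose, and which dose applied to these libraries was not settled. With 1 library a group no replicate spread exists, so no test between the groups was possible, no p-value is given, and every interval (95%, exact) covers counting error only. Pooled animals cannot be separated, and reads from 1 library share its cell capture, dissociation and depth.

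The GA library held 9322 barcodes and the control library 8718, of which 23 barcode sequences occurred in both. Filtering left 8375 cells (160386283 UMIs, median 10930 per cell) in the GA library and 7555 cells (184414573 UMIs, median 16336) in the control library. The cells fell into 36 clusters, of which 35 were assigned to a class by marker genes and 1 was left unnamed. The 10 genes and all pathway genes named here were left out of the clustering. Neutrophil-like cells made up 52.7% of GA cells and 27.6% of control cells, a difference that moves every level summed over all cells. Levels are given as CPM, the UMIs of a gene scaled to 1000000 UMIs of the same cells, and are meant for comparing each gene across cells. Where the UMIs of a pair of genes are set against each other, differences in capture between the genes were not corrected.

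In the mouse genome (mm10), Il1b (chr2:129364570-129371139, minus strand) and Il1a (chr2:129299610-129309972, minus strand) are neighbours 54597 bases apart, and Il1rn (chr2:24336853-24351494) lies elsewhere on the same chromosome. Il1r2 (chr1:40074079-40125231) and Il1r1 (chr1:40225080-40317257) are 99848 bases apart. Il1rap is at chr16:26581704-26730117, Il18 at chr9:50554827-50581840, Casp1 at chr9:5298517-5307265, Nlrp3 at chr11:59541568-59566956 and Il33 at chr19:29925114-29960718, all on the plus strand like Il1rn, Il1r1 and Il1r2. The promoter windows of 4 of them are printed because these genes carry the cell type pattern described next. Il1b and Nlrp3 were highest in the same classes, Il1a is the neighbour of Il1b with a different pattern, and Il33 was a mesenchymal gene. For Il33 the window is that of an annotated start within the gene, one of 2 starts in the table; the window of the other holds a TATA box and none of the other motifs given below. Nlrp3 also has 2 starts, and the window not printed holds none of them. Each window runs from 250 bases before to 50 bases after an annotated transcript start in RefSeq (GRCm38.p6), 5′ to 3′ on the strand of the gene, with motif matches in capitals.
Il1b, chr2:129371090-129371389: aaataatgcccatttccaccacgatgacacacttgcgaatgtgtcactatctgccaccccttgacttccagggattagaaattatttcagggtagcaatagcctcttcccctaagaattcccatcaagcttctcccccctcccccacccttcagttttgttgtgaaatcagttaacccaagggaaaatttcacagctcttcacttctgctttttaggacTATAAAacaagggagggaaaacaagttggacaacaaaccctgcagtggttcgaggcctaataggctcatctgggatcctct
Il1a, chr2:129309923-129310222: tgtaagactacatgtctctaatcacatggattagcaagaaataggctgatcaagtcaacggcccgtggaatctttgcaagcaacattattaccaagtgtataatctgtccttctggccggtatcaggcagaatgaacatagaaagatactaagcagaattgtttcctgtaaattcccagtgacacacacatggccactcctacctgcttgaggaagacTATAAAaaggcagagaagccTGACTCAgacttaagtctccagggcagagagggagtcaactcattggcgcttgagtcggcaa
Nlrp3, chr11:59541319-59541618: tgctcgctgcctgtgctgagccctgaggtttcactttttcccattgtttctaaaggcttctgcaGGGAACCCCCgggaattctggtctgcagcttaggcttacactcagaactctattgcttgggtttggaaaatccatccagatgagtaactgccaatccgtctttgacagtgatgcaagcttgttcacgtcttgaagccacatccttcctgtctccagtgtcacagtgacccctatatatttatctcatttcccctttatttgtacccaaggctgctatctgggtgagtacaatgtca
Il33, chr19:29945540-29945839: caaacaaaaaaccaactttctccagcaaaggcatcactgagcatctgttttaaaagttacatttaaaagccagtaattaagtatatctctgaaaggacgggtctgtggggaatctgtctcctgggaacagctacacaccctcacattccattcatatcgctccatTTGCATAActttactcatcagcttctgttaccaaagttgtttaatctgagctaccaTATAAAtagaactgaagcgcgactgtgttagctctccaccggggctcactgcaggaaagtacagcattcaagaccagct

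The capitals in these windows mark exact matches, on either strand, to 5 short motifs. A TATA box (TATAAA) begins 31 bases before the start of Il1b, 32 before that of Il1a and 29 before that of Il33, and 13.6% of the 32851 promoter windows of the same length hold one. An AP-1 motif (TGANTCA, in 7.81% of windows) begins 12 bases before the start of Il1a. A kappaB motif, found in 8.46% of windows, begins 186 bases before the start of Nlrp3, and a C/EBP motif (TTGCNNAA, in 10.8% of windows) begins 85 bases before that of Il33. The interferon-stimulated response element (GAAANNGAAA, in 3.44% of windows) has no match in these 4 windows. These matches describe the letters only, and no binding was measured here.

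The family divided by cell class. Il1b, Il1r2, Nlrp3 and Il1rap were highest in neutrophils or other granulocytic and myeloid cells, Il1rn, Il1a and Casp1 in macrophages and related cells, Il33 and Il1r1 in mesenchymal or vascular cells, and Il18 in mesenchymal-like, macrophage-like or monocyte-like and dendritic-like cells, whose order differed between the libraries. Levels of selected classes follow, and the plot of levels by class shows all of them.

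Il1b, the main secreted interleukin-1 ligand of myeloid cells, was at 2179 CPM (2165 to 2193) in neutrophil-like cells of the GA library and 2118 CPM (2095 to 2141) in those of the control library. It was at 1607 and 2688 CPM in dendritic-like cells, at 1965 and 2770 CPM in basophil or mast-like cells (35 and 36 cells only), and at 629 and 719 CPM in macrophage-like or monocyte-like cells. The 3 leading classes therefore changed order between the libraries, while macrophage-like or monocyte-like cells came after them in both. B-like cells, which served as a reference class for transcripts picked up from the suspension, showed 24.4 and 5.91 CPM.

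Il1a, the ligand that many cells release on injury, was at 47.9 CPM in macrophage-like or monocyte-like cells of the GA library and 96.5 CPM in those of the control. Megakaryocyte-like cells had 22.5 and 43.9 CPM from 10 and 19 UMIs, neutrophil-like cells 11.2 and 17.2 CPM, and dendritic-like cells 5.02 and 21.4 CPM. The neighbouring Il1a and Il1b thus led in different classes.

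Il18, whose precursor many resting cells make, was at 37.3 and 20.3 CPM in mesenchymal-like cells and at 32.3 and 29.2 CPM in macrophage-like or monocyte-like cells of the GA and control libraries. Dendritic-like cells had 31.5 and 25.8 CPM, and the unnamed cluster 11.4 and 31.7 CPM from 3 and 36 UMIs. B-like cells had 5.95 and 7.89 CPM.

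Il33 was at 238 CPM in mesenchymal-like cells of the GA library and 384 CPM in those of the control, which held 98.8% and 98.4% of all its UMIs. The next named class, pericyte or smooth muscle-like cells, had 1 UMI in the GA library and 19 UMIs (24.9 CPM) in the control. Osteoblast-like cells, of the same lineage, had 0.313 and 4.13 CPM, the former from 1 UMI.

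Il1r1, the signalling receptor, was at 143 and 200.2 CPM in mesenchymal-like cells, at 165 and 171 CPM in endothelial-like cells and at 67.7 and 94.5 CPM in T or NK-like cells of the GA and control libraries. The highest values, 1807 and 928 CPM, came from 6 and 30 pericyte or smooth muscle-like cells. In neutrophil-like cells Il1r1 had 1.87 and 4.85 CPM, against 3.20 and 4.60 CPM in B-like cells, so its level there did not stand above that reference.

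Il1r2, the decoy receptor, showed nearly the reverse distribution. Neutrophil-like cells had 1237 and 1328 CPM, dendritic-like cells 214 and 509 CPM, and mesenchymal-like cells 19.3 and 8.64 CPM. Of the UMIs of Il1r1 and Il1r2 together, Il1r2 made up 99.8% and 99.6% in neutrophil-like cells and 12.0% and 4.17% in the mesenchymal lineage, in the GA and control libraries. The accessory chain Il1rap was at 200.2 and 175 CPM in neutrophil-like cells, 73.6 and 55.9 CPM in basophil or mast-like cells, and 17.3 and 15.5 CPM in mesenchymal-like cells.

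Il1rn, the receptor antagonist, was at 191 and 294 CPM in macrophage-like or monocyte-like cells, 190 and 180 CPM in dendritic-like cells, and 118 and 181 CPM in neutrophil-like cells. Osteoclast-like cells, the bone-resorbing relatives of macrophages, had 49.9 and 43.0 CPM. The share of Il1rn in the summed UMIs of Il1rn and Il1b ranged widely among classes. It was 84.1% and 61.2% in osteoclast-like cells and 23.3% and 29.0% in macrophage-like or monocyte-like cells. Dendritic-like cells had 10.6% and 6.28%, and neutrophil-like cells 5.14% and 7.86%. The osteoclast-like shares rest on 69 and 120 UMIs of Il1rn and 13 and 76 of Il1b, from 29 and 58 cells. Il1b there was at 9.41 and 27.2 CPM, against 24.4 and 5.91 CPM in B-like cells.

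Nlrp3, the inflammasome sensor, was highest in the same classes as Il1b: neutrophil-like cells had 224 and 284 CPM, macrophage-like or monocyte-like cells 183 and 289 CPM, dendritic-like cells 180.5 and 204 CPM, and basophil or mast-like cells 632 and 261 CPM. Among these classes its order differed from that of Il1b. In the control library macrophage-like or monocyte-like cells had the most Nlrp3 and the least Il1b of them. Casp1 had a different pattern. It was at 55.2 and 48.5 CPM in macrophage-like or monocyte-like cells, at 49.9 and 35.4 CPM in dendritic-like cells, at 41.2 and 30.1 CPM in osteoclast-like cells, at 34.2 and 37.3 CPM in HSC or progenitor-like cells, and at 16.6 and 13.1 CPM in neutrophil-like cells, where B-like cells had 19.8 and 19.4 CPM. The class with most Il1b UMIs was thus below B-like cells for the enzyme that cuts its precursor. B-like Casp1 was near the level over all cells (23.2 and 16.2 CPM), so it does not serve as a background for this gene.

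Likeness between genes was measured as Pearson's r of log2(CPM + 1) over 14 classes of at least 50 cells, both libraries summed, among 15317 genes; the classes share libraries and depth, and r is a description. The gene most like Il1b was Nlrp3 (r = 0.971), followed by Ccl6 (0.969), a myeloid chemokine, and Lilr4b (0.935), an inhibitory receptor. Lilr4b (0.971) and Ccl6 (0.969) were also among the 3 genes most like Nlrp3. Il33 was most like Serpina3n (0.976), a protease inhibitor, Col4a5 (0.972), a basement membrane collagen, and Cadm2 (0.970), an adhesion molecule. Il1a was most like Lyz2 (0.876), Treml4 (0.852) and Ccl12 (0.849), and Il1rn like Gm15448 (0.939), Slc11a1 (0.925) and Clec4n (0.925). Il1r1 was most like Pcgf2 (0.930), Chst2 (0.926) and Hdgfl3 (0.925), Il18 like Marcks (0.893), Abca9 (0.847) and Dstyk (0.837), and Casp1 like B3gnt5 (0.926), Rreb1 (0.909) and Fam49b (0.906). Il1rap was most like Gm42829 (0.904), Dgat1 (0.901) and Trpm2 (0.869). Of the genes most like Il1r2, Gm16894 (0.933) overlaps it on the opposite strand, and Cldn1 (0.909) and Gm31683 (0.902) followed.

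Summed over all cells, the GA library had more Il1b, Il1r2 and Il1rap and less Il33 and Il1r1 than the control library. Each of the 10 genes passed the minimum of 50 UMIs over both libraries. With a fold of at least 2 in either direction (an absolute log2 ratio, GA over control, of at least 1) as the mark of a large difference, 4 of 10 passed: Il1r2 at 1.37 (1.35 to 1.39) and Il1rap at 1.12 (1.08 to 1.17) were higher in the GA library, and Il1r1 at -1.22 (-1.26 to -1.19) and Il33 at -1.59 (-1.62 to -1.56) were lower. Of all 18392 genes with 50 UMIs, 12.6% passed the same mark, 3.62% upward and 8.97% downward. Il1b (0.81), Casp1 (0.51), Nlrp3 (0.12), Il18 (0.11), Il1rn (-0.21) and Il1a (-0.85) did not pass. The median log2 ratio of the 10 genes was 0.11 against -0.09 for all genes. When both libraries were weighted to the same shares of cells by class, each with its own depth per cell, 0 of 10 passed. Il1b was then at 0.08, Il1r2 at 0.18, Il1rap at 0.35, Il1r1 at -0.58 and Il33 at -0.86.

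**Figure D1:**
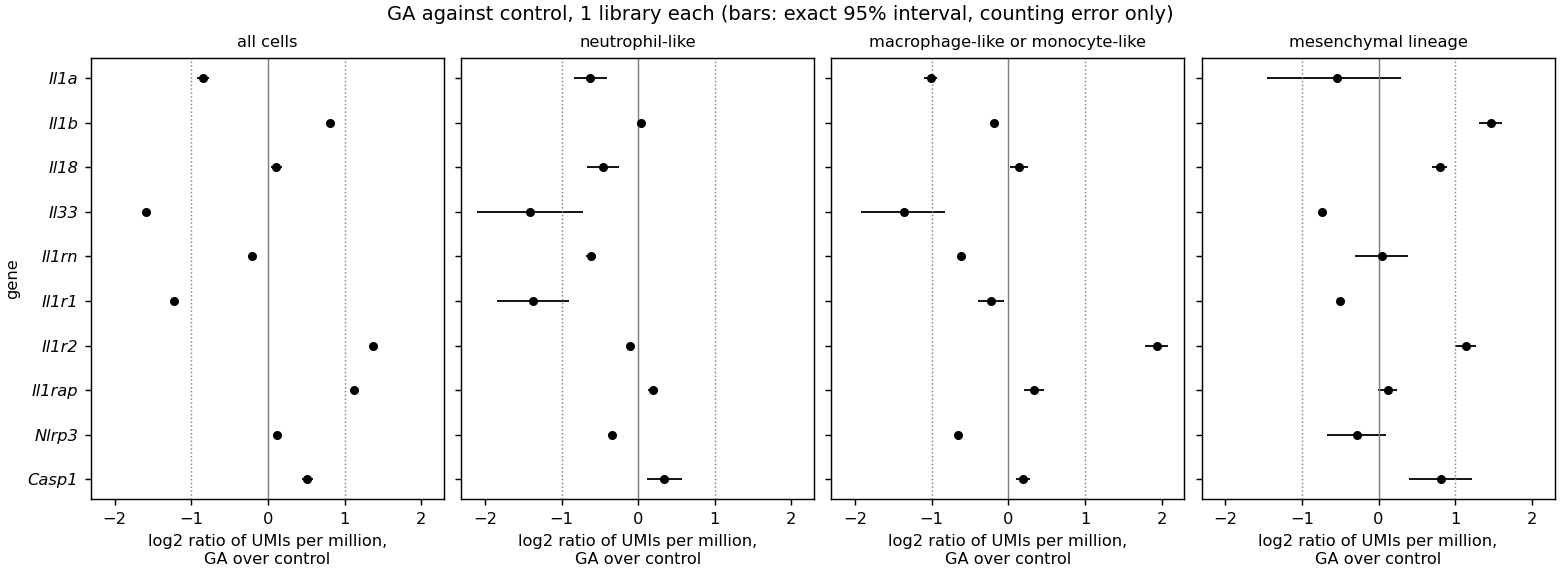
Log2 ratio of CPM, GA over control, for each of the 10 genes in all cells, neutrophil-like cells, macrophage-like or monocyte-like cells and the mesenchymal lineage, with 95% counting intervals and dotted lines at the 2-fold mark. Il1r2 is at 1.37 in all cells but at -0.10 in neutrophil-like cells, which hold most of it.

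The share of each gene's UMIs by class followed the same composition. Neutrophil-like cells held 76.4% of Il1b UMIs in the GA library and 41.5% in the control, and macrophage-like or monocyte-like cells 17.4% and 36.9%. For Nlrp3 the order of these classes turned: neutrophil-like cells held 56.8% in the GA library and 24.9% in the control, and macrophage-like or monocyte-like cells 36.6% and 66.2%. Il1r2 UMIs were mostly of neutrophil-like cells in both libraries, at 93.0% and 82.5%. Macrophage-like or monocyte-like cells held 52.4% and 73.9% of Il1rn UMIs and 75.0% and 88.8% of Il1a UMIs. Over all cells the Il1rn share of the summed Il1rn and Il1b UMIs was 9.17% in the GA library and 16.9% in the control.

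**Figure D2:**
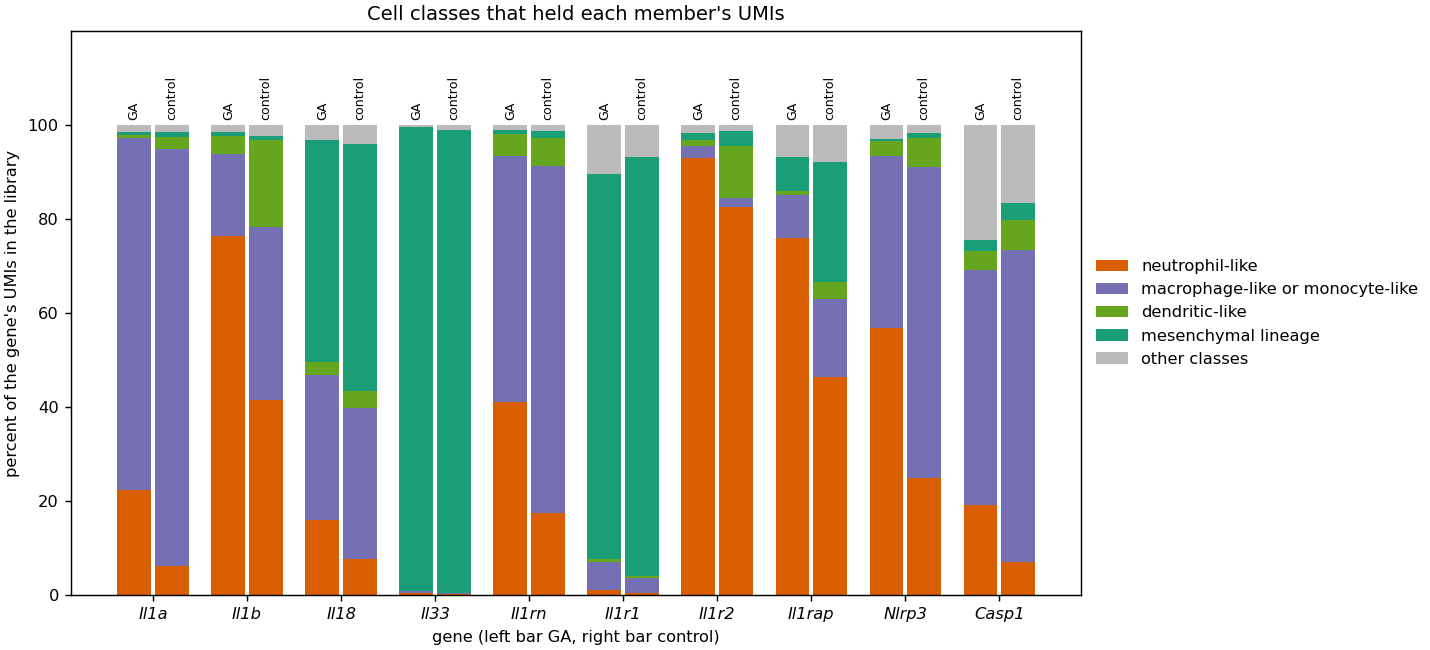
Percent of each gene's UMIs in each library that came from neutrophil-like, macrophage-like or monocyte-like and dendritic-like cells, the mesenchymal lineage and all other classes. The neutrophil-like part of Il1b is 76.4% in the GA library and 41.5% in the control library, while Il33 comes almost wholly from the mesenchymal lineage in both.

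Within neutrophil-like cells (4417 GA and 2083 control cells), the abundant members had similar levels in both libraries and the antagonist was lower in the GA library. Il1b differed by a log2 ratio of 0.04 (0.02 to 0.06) and Il1r2 by -0.10 (-0.13 to -0.08). Il1rn was at 118 CPM in the GA library and 181 CPM in the control, a log2 ratio of -0.61 (-0.68 to -0.55), and Nlrp3 was at -0.34. Il1rap (0.19) and Casp1 (0.34) were higher in the GA library, and Il18 (-0.46) and Il1a (-0.62) lower. Passing the 2-fold mark were 2 of 10, Il1r1 (-1.37) and Il33 (-1.41), both downward, against 3.28% of the 10884 genes counted in these cells (0.358% upward and 2.92% downward). Both rest on few UMIs, 156 for Il1r1 and 75 for Il33. Il33 was below its B-like level in both libraries (0.889 and 2.36 CPM against 2.74 and 6.24 CPM). Il1r1 was below it in the GA library (1.87 against 3.20 CPM). With the B-like level of the same library subtracted 0 of 10 passed, but neither of these 2 genes then had a ratio. The median over all genes in these cells was -0.16, and relative to it Il1r2 was at 0.05 and Il1rn at -0.46.

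Detection per cell gave the same picture for the antagonist. After each cell was thinned to 2000 UMIs, which left 4390 GA and 2057 control neutrophil-like cells, Il1rn was found in 22.5% and 32.2% of them and Nlrp3 in 30.8% and 35.8%. Il1b was found in 60.5% and 59.0%, and Il1r2 in 77.5% and 75.9%. Without thinning, Il1rn was found in 48.2% and 53.3%, Nlrp3 in 47.3% and 47.8%, Il1b in 71.1% and 65.6% and Il1r2 in 96.4% and 92.3%, at median depths of 7049 and 5091 UMIs. In thinned B-like cells, which should lack them, Il1rn was found in 0.343% and 0.521% and Il1b in 3.43% and 1.74%; the unthinned B-like values for Il1b were 10.8% and 5.19% at median depths of 6472 and 5913 UMIs. In thinned neutrophil-like cells with an Il1b UMI, Nlrp3 was found in 47.4% and 54.8%, and in those without one in 5.41% and 8.54%. Il1rn was likewise found more often where Il1b was, in 30.3% and 42.5% against 10.7% and 17.3%, whereas Casp1 was found in 3.77% and 2.39% against 3.28% and 2.73%.

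Neutrophil-like clusters were grouped by stage markers fixed for this work. A dividing precursor cluster (348 GA and 171 control cells) carried Mki67 and Elane, immature clusters (1474 and 642) carried granule genes such as Ltf and Camp, mature clusters (617 and 267) carried Cxcr2 and Retnlg, and 2 chemokine-expressing clusters (1452 and 757) carried Ccl3 and Ccl4, of which cluster 5 also had Egr1 and Ifit1 among its leading genes. Cluster 6 (526 and 246 cells) met no stage rule. The order of dividing, immature and mature cells here is that of textbook granulopoiesis, and no time course was measured. Cluster 6 and the chemokine-expressing clusters have no set place in that order.

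Il1b was higher in immature cells than in dividing precursors, higher again in mature cells, and highest in chemokine-expressing cells, in both libraries. It was at 17.1 CPM (GA) and 16.4 CPM (control) in dividing precursors and at 212 and 204 CPM in immature cells. It was at 2776 and 2258 CPM in mature cells, at 3044 and 2774 CPM in cluster 6, and at 9327 and 9014 CPM in chemokine-expressing cells. The difference between stages was far larger than that between libraries, which was greatest in mature cells at a log2 ratio of 0.30 (0.24 to 0.36). After thinning, the share of cells with an Il1b UMI was 2.3% and 1.8% in dividing precursors, 20.1% and 17.6% in immature cells, 79.5% and 70.3% in mature cells and 99.2% and 97.7% in chemokine-expressing cells. Without thinning the shares were 25.6% and 11.7%, 39.6% and 28.8%, 87.7% and 77.2%, and 99.3% and 98.0%, at median depths of 28213.5 and 23875, 11232 and 8519.5, 6299 and 4631, and 4807.5 and 3661 UMIs. The thinned share in dividing precursors was thus near that in B-like cells, 3.43% and 1.74%.

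Nlrp3 followed the same order, from 0.764 and 6.61 CPM in dividing precursors and 27.9 and 34.8 CPM in immature cells to 266 and 307 CPM in mature cells and 989 and 1206 CPM in chemokine-expressing cells. Il1r2 had a shallower slope, with 160.6 and 140.2 CPM in dividing precursors, 755 and 689 CPM in immature cells, 2116 and 2214 CPM in mature cells and 3411 and 4046 CPM in chemokine-expressing cells. The decoy receptor was thus above its B-like level in dividing precursors already, where Il1b was at 17.1 and 16.4 CPM against 24.4 and 5.91 CPM in B-like cells.

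**Figure D3:**
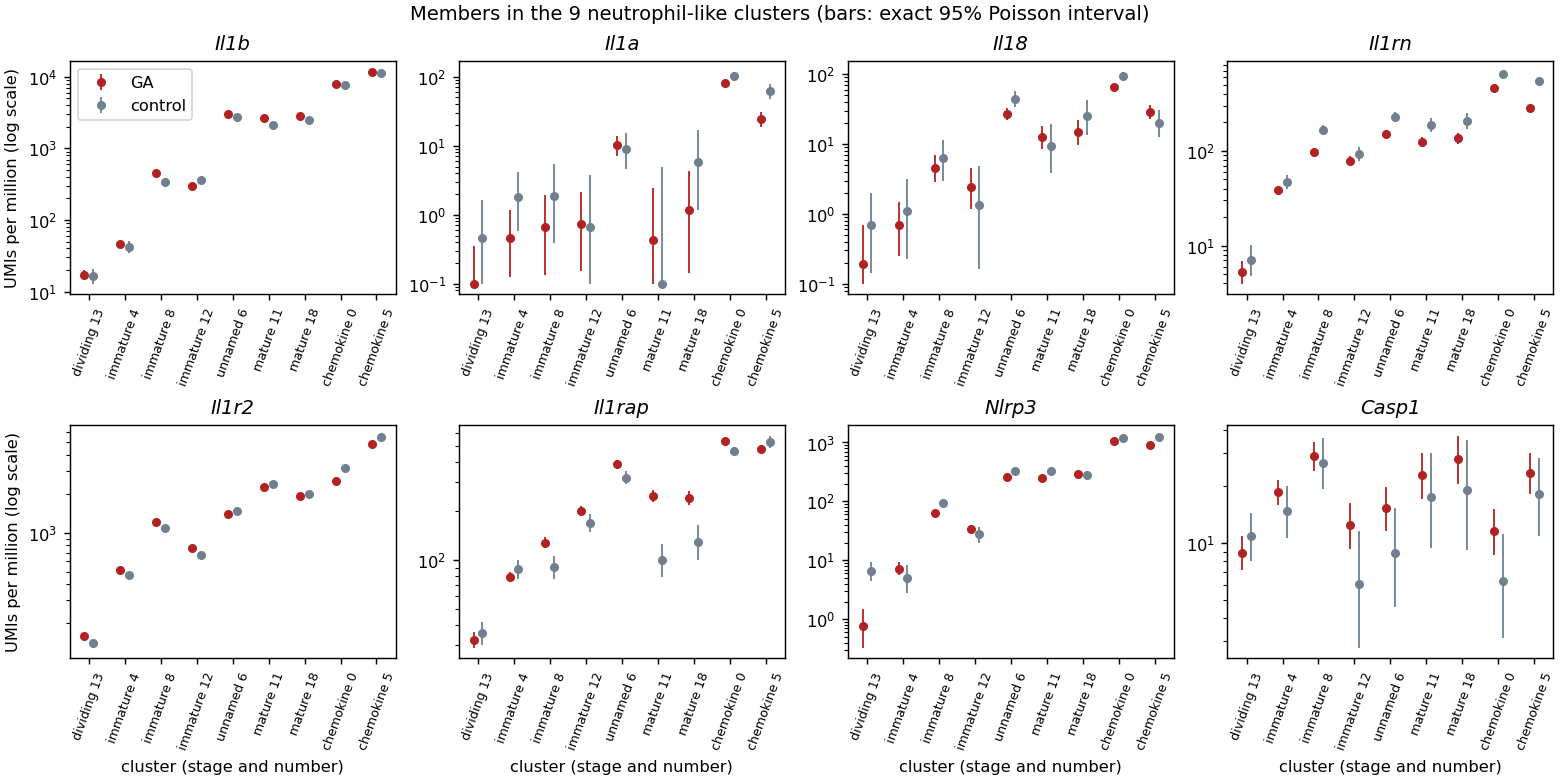
Level (CPM, log axis, with 95% counting intervals) of 8 of the genes (all but Il33 and Il1r1) in each neutrophil-like cluster in the GA and control libraries, ordered by stage, with values and bounds below 0.1 drawn at 0.1. Il1b runs from 17.1 and 16.4 CPM in dividing precursors to 9327 and 9014 CPM over the chemokine-expressing clusters, and the Il1rn points of the GA library lie below those of the control.

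Il1rn was lower in the GA library at each stage, and the mix of cells within stages was not tested. Chemokine-expressing cells had 392 CPM in the GA library and 608.5 CPM in the control (log2 ratio -0.63, -0.72 to -0.55), mature cells 129.5 and 195 CPM (-0.59), cluster 6 150.2 and 227 CPM (-0.60) and immature cells 63.3 and 91.9 CPM (-0.54). In dividing precursors, with 55 and 31 UMIs, the ratio was -0.43 and its interval of -1.09 to 0.26 included 0. The gap was widest in cluster 5, with 281 and 546 CPM. Il1rap stood out in mature cells, with 244 CPM in the GA library and 112 CPM in the control (1.13, 0.87 to 1.39), while chemokine-expressing cells had 515 and 490 CPM and immature cells 121 and 109 CPM. Il1a and Il18 were highest in the chemokine-expressing clusters, where Il1a had 59.6 and 86.9 CPM and Il18 had 51.2 and 65.9 CPM. Relative to the median of all genes in the same cells, the one sign to turn among these stages was that of Il1r2 in mature cells, from -0.07 to 0.04.

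Within macrophage-like or monocyte-like cells (1399 GA and 1861 control cells), Il1r2 was higher in the GA library and Il1a, Il1rn and Nlrp3 were lower. Passing the 2-fold mark were 3 of 10, Il1r2 (1.94, 1.79 to 2.09), Il1a (-1.01) and Il33 (-1.36, from 161 UMIs at 1.16 and 2.97 CPM, below the B-like level), against 8.13% of the 12898 genes counted (5.81% upward and 2.32% downward). Il1b was at -0.19, Il1rn at -0.62 (-0.66 to -0.57), Nlrp3 at -0.65 (-0.70 to -0.61), Il1rap at 0.33, Casp1 at 0.19, Il18 at 0.14 and Il1r1 at -0.23. The median over all genes here was 0.11, and relative to it Il1r2 was at 1.83 and Il1rn at -0.73.

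The lower Il1rn of the class was not shared by its clusters. In Arg1 macrophages (474 GA and 871 control cells), which express the arginine-degrading enzyme Arg1, Il1rn was at 313 CPM in the GA library and 336 CPM in the control (-0.10, -0.16 to -0.04). C1q macrophages (296 and 568 cells), marked by complement C1q genes, had 401 and 337 CPM (0.25, 0.18 to 0.32), the opposite direction. In Ly6c2 monocytes (567 and 366 cells), which also carried the progenitor genes Prtn3 and Elane among their leading genes, Il1rn was at 24.0 and 49.1 CPM (-1.04, -1.27 to -0.81). Ly6c2 monocytes, low in Il1rn in both libraries, made up more of the class in the GA library. With the same shares of cells by cluster in both libraries the log2 ratio of the class was -0.23 instead of -0.62. Each library kept its own depth per cell in that weighting, so the clusters' shares of UMIs still differed between the libraries. The value for the class therefore depended on the cluster shares. Ly6c2 monocytes had median depths of 22805 and 12381.5 UMIs, and the mix of cells within clusters was not tested.

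Of the 3 named clusters, Nlrp3 was lower in the GA library in the Arg1 and Ly6c2 clusters. Arg1 macrophages had 173.5 CPM in the GA library and 309 CPM in the control (-0.83, -0.91 to -0.76), and Ly6c2 monocytes 134 and 191 CPM (-0.51), whereas C1q macrophages had 329 and 303 CPM (0.12). Il1b was lower in the GA library in all 3 clusters, with 626 and 821 CPM in Arg1 macrophages, 273 and 335 CPM in C1q macrophages and 795 and 1272 CPM in Ly6c2 monocytes (-0.39, -0.29 and -0.68). Il1a was at 56.2 and 93.2 CPM in Arg1 macrophages (-0.73), 115.5 and 135 CPM in C1q macrophages (-0.23) and 10.2 and 15.3 CPM in Ly6c2 monocytes (-0.59). The small unnamed cluster with Timd4 and Vcam1, described next, had 148 and 136 CPM of Il1a. Of the 3 named clusters, Il1a was thus highest in C1q macrophages and Il1b in Ly6c2 monocytes, in both libraries. None of the 3 passed the 2-fold mark for Il1a, although the class did at -1.01. Ly6c2 monocytes, the lowest of the 3 in Il1a and Nlrp3, made up 567 of 1399 GA cells and 366 of 1861 control cells. The class values of Il1a and Nlrp3 therefore also depended on the cluster shares.

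Il18 went the other way in macrophages than in monocytes. It was at 35.7 and 22.8 CPM in Arg1 macrophages (0.65, 0.45 to 0.84) and at 47.9 and 35.3 CPM in C1q macrophages (0.44), but at 15.4 and 25.9 CPM in Ly6c2 monocytes (-0.75, -1.05 to -0.44). The small cluster with Timd4 and Vcam1 among its leading genes (62 and 56 cells, left unnamed) had 253 and 216 CPM, the highest Il18 level of any cluster in this class. Casp1 was at 65.1 and 52.1 CPM in Arg1 macrophages and 53.8 and 61.9 CPM in Ly6c2 monocytes. The Il1rn share of the summed Il1rn and Il1b UMIs ranked the 3 named clusters alike in both libraries, at 59.5% and 50.1% in C1q macrophages, 33.3% and 29.0% in Arg1 macrophages and 2.93% and 3.72% in Ly6c2 monocytes.

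Transcripts used as neutrophil markers were set beside the Il1r2 difference. All 10 neutrophil markers (S100a8, S100a9, Ly6g, Retnlg, Ngp, Camp, Ltf, Mmp8, Csf3r and Cxcr2) were higher in macrophage-like or monocyte-like cells of the GA library, with a summed level of 3045 CPM against 382 CPM, and none was at 0. Within clusters, Csf3r was lower in the GA library in Ly6c2 monocytes (82.7 and 113 CPM) and C1q macrophages (86.5 and 91.3 CPM). It was higher in Arg1 macrophages (49.6 and 30.6 CPM). Of the 51389 UMIs of S100a8 in the class in the GA library, 37013 were in Ly6c2 monocytes. Whether those came from neutrophils was not tested. Il1r2 was higher in the GA library in Arg1 macrophages (19.6 and 5.13 CPM), C1q macrophages (10.6 and 6.81 CPM) and Ly6c2 monocytes (77.1 and 49.1 CPM). Its log2 ratios were 1.94, 0.63 and 0.65, in this order. The summed markers of these clusters were 1651 and 311, 2805 and 317, and 4071 and 818 CPM, so the 2 differences were not ranked alike. Without cells that had over 1% of UMIs from these markers (58 GA and 3 control cells) the ratio of the class was 1.65. With the same shares of cells by cluster in both libraries it was 1.31, each library keeping its own depth per cell. Ly6c2 monocytes, the highest of these clusters in Il1r2, had median depths of 22805 and 12381.5 UMIs, so shares of UMIs still differed. The remaining part of neutrophil transcripts in the difference was not tested.

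**Figure D4:**
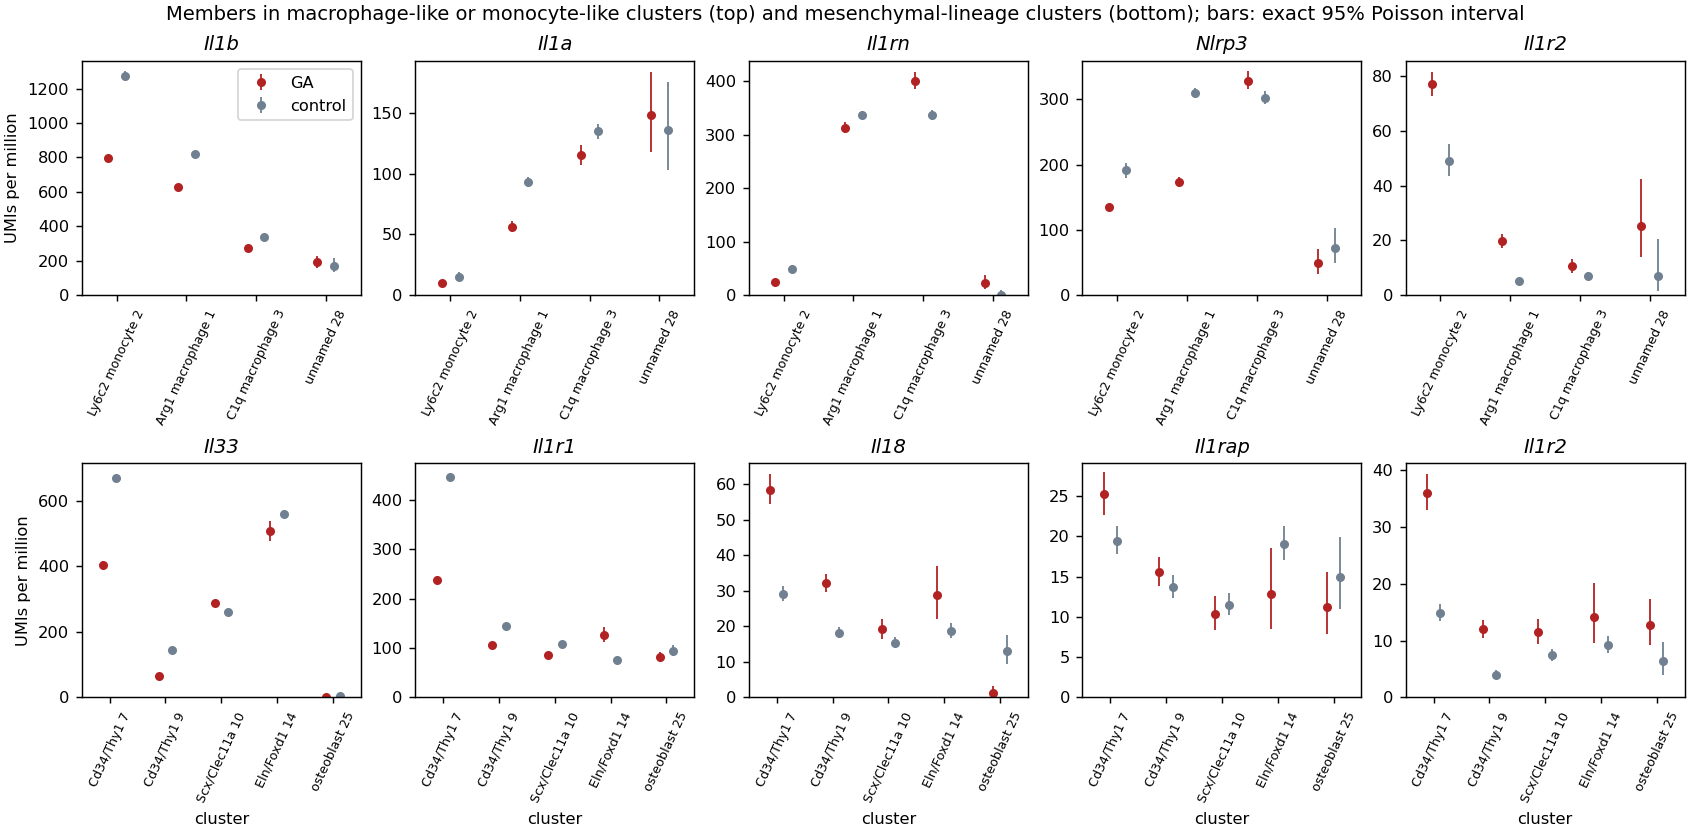
Level (CPM, linear axes from 0 that differ between panels, with 95% counting intervals) of 5 genes in the macrophage-like or monocyte-like clusters (top) and 5 in the mesenchymal-lineage clusters (bottom) of the GA and control libraries. Il1rn differs little between libraries in Arg1 macrophages (313 and 336 CPM) and is lower with GA in Ly6c2 monocytes (24.0 and 49.1 CPM), and Il33 is near 0 in osteoblast-like cells.

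In the mesenchymal lineage (907 GA and 1763 control cells, osteoblast-like cells included), Il33 and Il1r1 were lower and Il18 was higher in the GA library. Il33 was at 222 CPM in the GA library and 371 CPM in the control (-0.74, -0.77 to -0.71), and Il1r1 at 139 and 197 CPM (-0.50, -0.54 to -0.46). Il18 was at 34.9 and 20.1 CPM (0.80, 0.70 to 0.89). None of these passed the 2-fold mark. The 2 of 10 that did were Il1b (18.4 and 6.65 CPM, 1.47) and Il1r2 (18.9 and 8.56 CPM, 1.14), against 5.82% of the 15713 genes counted (2.95% upward and 2.88% downward), and the median over all genes was -0.02. Il1rap (0.12), Il1rn (0.04), Nlrp3 (-0.28), Casp1 (0.81) and Il1a (-0.54) were at 17 CPM or less in both libraries.

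The Il1b and Il1r2 values of the lineage were set beside its neutrophil transcripts. All 10 neutrophil markers were higher in the GA library here too, with a summed level of 1837 CPM against 219 CPM, and none was at 0. Without cells with over 1% of UMIs from these markers (38 GA and 4 control cells), 0 of 10 passed the 2-fold mark, with Il1b at 0.94 and Il1r2 at 0.86, whereas Il18 (0.79), Il33 (-0.74) and Il1r1 (-0.49) were at nearly the same values as before. The 5 cells with most Il1b UMIs held 35.5% of them in the GA library and 24.1% in the control. Il1b in this lineage was also close to its level in B-like cells, 24.4 and 5.91 CPM. Il1r2, at 18.9 and 8.56 CPM, was above its B-like level of 10.4 and 3.45 CPM. The part of neutrophil transcripts in either difference was not tested.

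Il33 and Il1r1 shared a leading cluster in the control library but not in the GA library. Of the clusters with Cd34 and Thy1 among their markers, genes of fibrous stroma, cluster 7 (280 and 479 cells) had 404 CPM of Il33 in the GA library and 669.8 CPM in the control (-0.73), and cluster 9 (281 and 366 cells) had 66.8 and 146 CPM (-1.13). The Scx and Clec11a cluster (174 and 466 cells), marked by the tendon gene Scx, had 287.5 and 260 CPM (0.15, 0.08 to 0.21), and the Eln and Foxd1 cluster (88 and 374 cells) had 508 and 561 CPM (-0.14, -0.23 to -0.05). The Cd34 and Thy1 clusters together were at 206 and 390 CPM (-0.92, -0.96 to -0.88). The Eln and Foxd1 cluster, high in Il33 in both libraries, made up 88 of 907 lineage cells in the GA library and 374 of 1763 in the control. With the same shares of cells by cluster in both libraries the log2 ratio of the lineage was -0.52 instead of -0.74. Each library kept its own depth per cell in that weighting. The Il33 value of the lineage thus depended on the cluster shares, and the mix of cells within clusters was not tested. Osteoblast-like cells (84 and 78 cells, 1 and 13 UMIs) were below the B-like level of Il33 in both libraries.

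Il1r1 was highest in cluster 7 in both libraries and lower there in the GA library, with 237.5 and 446 CPM (-0.91), and it was likewise lower in cluster 9, with 107 and 144 CPM (-0.43). It was higher in the Eln and Foxd1 cluster, with 127 and 76.5 CPM (0.73, 0.54 to 0.92), so the direction was not shared by the lineage. Osteoblast-like cells, in contrast to Il33, kept Il1r1, at 81.3 and 94.1 CPM (-0.21, -0.46 to 0.03). Il18 was higher in the GA library in cluster 7 (58.6 and 29.1 CPM), cluster 9 (32.2 and 18.2 CPM), the Scx and Clec11a cluster (19.2 and 15.3 CPM) and the Eln and Foxd1 cluster (28.8 and 18.7 CPM), and lower in osteoblast-like cells, with 4 and 41 UMIs.

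After thinning to 2000 UMIs, Il33 was found in 23.2% of GA and 33.5% of control cells of the lineage, Il1r1 in 19.3% and 25.2%, and Il18 in 7.50% and 3.92%. Without thinning the shares were 63.9% and 75.7%, 82.4% and 85.9%, and 58.1% and 54.0%, at median depths of 49497 and 51049 UMIs. Thinned B-like cells showed Il33 in 0.172% and 1.04%, Il18 in 1.37% and 1.04%, and Il1r1 in 0% (0 of 583 cells, which allows up to 0.631%) and 0.521%.

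The partners and relatives of the 10 genes were counted from lists drawn up for this work. Of the other family ligands, 5 of 9 symbols were in the matrices and 1 had 50 UMIs. This was Il1f9 (interleukin-36 gamma), at 202 CPM in neutrophil-like cells of the GA library and 162 CPM in those of the control (0.32), and at 55.8 and 14.6 CPM over all cells (1.93). Like Il1b it was higher along the neutrophil stages, from 12.9 and 3.19 CPM in dividing precursors to 460.2 and 403 CPM in chemokine-expressing cells. In macrophage-like or monocyte-like cells it was at 4.36 and 2.41 CPM (0.85) and in the mesenchymal lineage at 1.07 and 0.143 CPM (2.91), where neutrophil markers were also higher in the GA library.

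Of the 8 other receptors and binding proteins, all were counted over all cells, where 1 passed the 2-fold mark upward and 2 downward, against 3.62% and 8.97% of all genes. Il18rap, the accessory chain of the interleukin-18 receptor, was at 51.2 and 19.4 CPM (1.40) over all cells but at 161 and 162 CPM (-0.02) within neutrophil-like cells. It was at 7.12 and 1.51 CPM (2.24) in macrophage-like or monocyte-like cells, where neutrophil markers were also higher in the GA library. Il1rapl2 (-1.56) and Il1rapl1 (-1.40), neuronal relatives of the accessory chain, were lower, at 1.30 and 4.16 CPM, in this order, in the control. Il18r1, the ligand-binding chain for interleukin-18, was highest in T or NK-like cells, at 324 and 462.5 CPM. Il1rl1, the receptor of interleukin-33, was at 444 and 446 CPM (-0.01) in the mesenchymal lineage, in which Il33 was lower in the GA library. The ligand and its receptor met in the Cd34 and Thy1 clusters, where Il1rl1 had 555 and 657 CPM. They did not in the Eln and Foxd1 cluster, which had the highest Il33 CPM of the 4 mesenchymal groups and 12.4 and 16.5 CPM of Il1rl1. By UMIs, the Cd34 and Thy1 clusters held more Il33 (6732 and 20408) than the Eln and Foxd1 cluster (1109 and 9180). In neutrophil-like cells 1 of 6 counted passed (Il1rl2, -1.40), in macrophage-like or monocyte-like cells 2 of 6 (Il18rap, and Sigirr at 1.10 from 113 UMIs), and in the mesenchymal lineage 1 of 7 (Il1rapl2, -1.54).

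The signalling genes downstream of the receptors (Myd88, the Irak kinases, Traf6 and partners) were all counted, 12 in each set of cells, and 0 of 12 passed the 2-fold mark in any. Of all genes, 12.6% passed over all cells, 3.28% in neutrophil-like cells, 8.13% in macrophage-like or monocyte-like cells and 5.82% in the mesenchymal lineage, so few or none of 12 would pass at those shares. Over all cells they ran from Tollip (-0.28) to Irak4 (0.53), in neutrophil-like cells from Tab3 (-0.53) to Irak4 (0.20), and in macrophage-like or monocyte-like cells from Tollip (-0.31) to Myd88 (0.45). In the mesenchymal lineage Irak3, an inhibitor of the pathway, was at 67.4 and 42.6 CPM (0.66), the highest ratio, and Tab3 was lowest (-0.28).

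Of the 22 other inflammasome and pyroptosis genes, 1 of 22 passed over all cells, 0 of 19 in neutrophil-like cells, 1 of 21 in macrophage-like or monocyte-like cells and 2 of 16 in the mesenchymal lineage, beside the shares of all genes just given. Nlrp12, a sensor of neutrophils, was the one over all cells, at 22.6 and 7.77 CPM (1.54), and it passed in macrophage-like or monocyte-like cells (1.62) and the mesenchymal lineage (1.11) at under 2 CPM. Panx1, a membrane channel, was lowest over all cells (-0.35) and in neutrophil-like cells (-0.98, 50 UMIs), where Gbp2, an interferon-induced GTPase, was highest at 11.1 and 5.55 CPM (1.00, just under the mark). Ninj1, which ruptures dying cells, was lowest in macrophage-like or monocyte-like cells, at 320.2 and 441 CPM (-0.46), and Aim2, a DNA sensor, in the mesenchymal lineage (-1.52). Aim2 was at 0.610 and 1.75 CPM there, with 63% of its UMIs in 5 cells. The adaptor Pycard, chosen after its values were seen, resembled Casp1 rather than Nlrp3: it was at 276 and 192 CPM in macrophage-like or monocyte-like cells, at 44.8 and 37.3 CPM in neutrophil-like cells and at 16.3 and 17.1 CPM in the chemokine-expressing clusters, which had the most Il1b and Nlrp3.

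The median log2 ratio of genes that interleukin-1 is known to induce was -0.52 over all cells (19 genes), -0.45 in neutrophil-like cells (17), -0.63 in macrophage-like or monocyte-like cells (18) and -0.09 in the mesenchymal lineage (19). The medians of all genes in the same cells were -0.09, -0.16, 0.11 and -0.02. Genes of this list past the mark were named where few, after their values were seen. Over all cells, where 3.62% of all genes passed upward and 8.97% downward, these were Ccl20 upward and 3 downward, Cxcl5, a neutrophil-attracting chemokine (74.5 and 236 CPM, -1.66), Mmp3 (-1.60) and Csf3 (-1.04). In macrophage-like or monocyte-like cells 1 of 18 passed upward and 5 downward, against 5.81% and 2.32% of all genes. The upward one was Steap4, a metalloreductase, at 1.69 and 0.609 CPM (1.47), with 41.5% of its UMIs in 5 cells. In neutrophil-like cells Steap4 was at 33.6 and 7.08 CPM, and carry-over of neutrophil transcripts was not tested. Of the 5 downward, the chemokine Cxcl1 had 194 CPM in the GA library and 435 CPM in the control (-1.16). Csf3, the growth factor of neutrophils, had 10.2 and 22.3 CPM (-1.12), and Cxcl5 (-1.96), Mmp3 (-1.07) and Csf2 (-1.06) were below 10 CPM.

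In neutrophil-like cells 2 of 17 response genes passed upward and 4 downward, against 0.358% and 2.92% of all genes. Steap4 was at 33.6 CPM in the GA library and 7.08 CPM in the control (2.25, 1.97 to 2.54), with 160.2 and 29.6 CPM in the chemokine-expressing clusters, and Saa3 at 3.93 and 1.79 CPM (1.14). Icam1, which was also a marker of the chemokine-expressing clusters, was at 17.0 and 34.2 CPM (-1.01), and Cxcl5 (-1.61), Mmp3 (-1.80) and Il6 (-1.10) were below 6 CPM. Mmp3 rested on 22 and 28 UMIs. B-like levels were not subtracted for this list, so the part of transcripts picked up from the suspension was not tested. Of 19 in the mesenchymal lineage, 1 passed upward (2.95% of all genes did), Ccl20 (4.78), of which 5 cells held 95.7%, and the lowest was Csf3 at 3.22 and 5.85 CPM (-0.86).

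Genes on the opposite strand overlap 5 of the 10 genes: Gm16894 (Il1r2), Il1bos (Il1b), Gm14023 (Il1a), Gm20319 (Il1rap), and Bco2 and Tex12 (Il18), of which the last pair was not counted here. Gm16894, opposite Il1r2, had 502 GA and 279 control UMIs, Il1bos, opposite Il1b, had 345 and 220, Gm14023, opposite Il1a, had 572 and 396 beside 2152 and 4458 of Il1a, and Gm20319, opposite Il1rap, had 11 and 8. How reads in the shared stretch were divided was not tested. Il1bos followed Il1b along the neutrophil stages, with 0 UMIs in dividing precursors of both libraries, 0.862 and 0.854 CPM in immature cells, 6.78 and 4.76 CPM in mature cells and, in chemokine-expressing cells, 215 UMIs in the GA library and 114 UMIs (40.6 CPM) in the control.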

How the data were processed

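The authors deposited 1 filtered matrix of UMI counts per library, made with Cell Ranger against mm10 per the labels, with 7.0.1 named in the file headers. Each library is 1 sample, so no test was made. Cells with 500 to 140000 UMIs, 200 to 9500 genes and at most 15% mitochondrial UMIs were kept. Scrublet's automatic threshold called 3 (0.032%) and 52 (0.596%) doublets, so the highest scores were removed at 0.8% per 1000 barcodes (661 and 538 cells). Pearson residuals (theta 100), 2000 variable genes without the members and list genes, 50 principal components, Harmony (theta 2, lambda 1, sigma 0.1), 15 neighbours and Leiden clustering (resolution 1, seed 1) followed, in scanpy 1.11.5 with leidenalg 0.10.2. A class needed at least 3 markers found in 10% of the cluster's cells at 2-fold over the median cluster (stages: over the mean of the class's clusters), and these thresholds were set after the data were seen.

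UMIs were summed per library and class and divided by the class total (CPM), with exact Poisson intervals. Log2 ratios have exact conditional binomial intervals and shares Clopper-Pearson intervals (scipy 1.17.1), all 95% and for counting error only. A gene counted from 50 UMIs over both libraries. For detection, cells were thinned to 2000 UMIs, which left out cells below that depth. The code was tested on simulated data. Named were the 10 members, in each list the genes with the highest and lowest ratio, ligand and receptor genes with at least 200 UMIs where described, and the 3 genes most like each member. The members and lists were chosen with earlier results of these data known. Gene positions are from GENCODE vM21 and promoters from RefSeq GRCm38.p6, the same build as mm10. Alternatives were 3 other clusterings (resolution 0.5 and 2, seed 2), no batch correction, members kept among variable genes, no doublet removal, at most 10% mitochondrial UMIs, at least 2000 UMIs per cell, other scalings, other UMI minimums, leaving out the 5 cells with most UMIs, subtracting B-like levels, equal class or cluster shares, and leaving out cells with neutrophil markers.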

Additional observations from a re-analysis of the deposited data

Results flagged for a closer look

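Among neutrophil-like cells, macrophage-like or monocyte-like cells and the mesenchymal lineage, the difference between the libraries ran in opposite directions for 3 genes, with counting intervals on either side of 0. None of these differences between classes was tested, since each class comes from the same 2 libraries and there are no replicates. The signs also depended on the scaling. Relative to the median of all genes in the same cells, Il1r2 in neutrophil-like cells was at 0.05. On that scale Il18 in macrophage-like or monocyte-like cells was at 0.03. Il1b in macrophage-like or monocyte-like cells changed sign in 4 of 15 alternatives. The log2 ratio of Il1b, GA over control, was 0.234 higher in neutrophil-like than in macrophage-like or monocyte-like cells and 1.659 higher in the mesenchymal lineage than in macrophage-like or monocyte-like cells. The log2 ratio of Il1r2 was 2.040 higher in macrophage-like or monocyte-like cells and 1.243 higher in the mesenchymal lineage than in neutrophil-like cells. The ratio of Il18 was 0.605 higher in macrophage-like or monocyte-like cells and 1.260 higher in the mesenchymal lineage than in neutrophil-like cells. Summed neutrophil markers were 3045 and 382 CPM in macrophage-like or monocyte-like cells and 1837 and 219 CPM in the mesenchymal lineage of the GA and control libraries, higher in the GA library like Il1r2 in both and Il1b in the lineage, while Il1b in macrophage-like or monocyte-like cells was lower in the GA library.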

How the results depend on the processing

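No paired analysis was possible because each condition has 1 library. The number of the 10 genes past the 2-fold mark over all cells was 4. It was 2 as the mean of each cell's CPM, 2 with each cell thinned to 2000 UMIs and 0 with both libraries weighted to the same class shares. In neutrophil-like cells it was 2, against 0 with thinned cells, 0 with B-like levels subtracted and 0 with a minimum of 200 UMIs. The thinned and 200-UMI values follow from their construction, since Il1r1 and Il33 then fall under the minimum. The value with B-like levels subtracted does too for these genes. Il33 was below its B-like level in both libraries and Il1r1 in the GA library, so neither had a ratio. In macrophage-like or monocyte-like cells it was 3, against 1 with thinned cells. In the mesenchymal lineage it was 2, against 1 with no doublets removed, 4 as the mean of each cell's CPM and 0 without cells with over 1% of UMIs from neutrophil markers. The cause of the others was not tested. The last of these alternatives and the weighting to the same cluster shares were chosen after seeing the data. Il1a in macrophage-like or monocyte-like cells (-1.01) ran from -1.20 to -0.43, and Il1b there (-0.19) from -0.38 to 0.10 with 4 changes of sign over 15 alternatives. Il1rn there (-0.62) ran from -0.73 to 0.05 and Il1r2 (1.94) from 1.31 to 2.06. Il1rn in neutrophil-like cells (-0.61) ran from -0.63 to -0.46, Il33 in the mesenchymal lineage (-0.74) from -0.84 to -0.45 and Il18 there (0.80) from 0.77 to 1.25, with no change of sign. Depth limits Il1a, Il1rn, Nlrp3 and Casp1 in the mesenchymal lineage, each at under 3 CPM, and Il1r1 and Il33 in neutrophil-like cells, with 156 and 75 UMIs.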

Other observations

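Dendritic-like cells (145 GA and 293 control cells) had lower levels of both ligands and of the decoy receptor in the GA library, with the antagonist at a similar level. Il1b was at 1607 and 2688 CPM (log2 ratio -0.74), Il1r2 at 214 and 509 CPM (-1.25) and Il1a at 5.02 and 21.4 CPM (-2.09), while Il1rn was at 190 and 180 CPM and Casp1 at 49.9 and 35.4 CPM (0.49). The Il1rn share of the summed Il1rn and Il1b UMIs was 10.6% and 6.28%, so it was higher in the GA library here and lower in neutrophil-like cells.

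In endothelial-like cells (40 GA and 44 control cells) Il1b was at 133 and 11.2 CPM and Il1r2 at 84.7 and 1.60 CPM, and 9 of 40 GA cells against 0 of 44 control cells had over 1% of UMIs from neutrophil markers. Il1r1 was at 165 and 171 CPM in the same cells. The unnamed cluster (59 and 199 cells, with medians of 2116 and 1912 UMIs) had 30.3 and 280.1 CPM of Il33 and 19.0 and 122 CPM of Il1r1.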
